A study of Rattus norvegicus with 15 samples.

Results

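Bone of ovariectomized rats in the SYT group was compared with bone of Blank rats, to ask what still differed from intact untreated animals under SYT. The comparison took 3 SYT and 3 Blank libraries, 6 of the 15 libraries in the series, chosen by their labels alone, and 17657 of the 22468 genes in the deposited table carried enough counts to be tested. All rats were female and of the Sprague-Dawley strain. The Blank rats are labelled as having had no treatment, whereas the SYT rats are labelled as ovariectomized with the condition SYT, and the labels do not say what SYT is, at what dose or for how long it was given. The 3 Model libraries, from ovariectomized rats labelled with osteoporosis, were set beside them. No library of the 15 is labelled as sham-operated, and every SYT and Model rat carries the ovariectomy that no Blank rat is labelled with, so ovariectomy and SYT cannot be told apart in SYT against Blank. No label gives an age, the bone taken or whether the 3 libraries of a group came from separate animals, so a p-value here measures the spread of samples, which may be technical.

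Ovariectomy removes the main source of oestrogen, and in rats it is a standard model of the bone loss that follows menopause. Bone is continually resorbed by osteoclasts and rebuilt by osteoblasts, while osteocytes buried in the matrix restrain bone formation by secreting sclerostin, the product of Sost. A whole bone also holds marrow, in which red cells, platelets and white cells form, along with vessels, fat cells, cartilage and scraps of attached muscle. In such bulk samples fewer cells of a type and less RNA per cell cannot be told apart.

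The 6 libraries held between 66664739 and 71540999 counts each, and the label of bone was borne out by Col1a1, the main collagen of bone matrix, which reached a mean of 3240 FPKM (fragments scaled to gene length and library size) in Blank and 4919 in SYT. The SYT libraries were less alike than the Blank ones: Pearson's r of log2 CPM (counts scaled to library size) over the tested genes was 0.923 to 0.948 within SYT and 0.953 to 0.971 within Blank. SYT1 had a TMM scaling factor (edgeR's correction for library make-up) of 0.818, against 0.947 to 1.126 in the other 5 libraries. SYT3 was the highest SYT library for 16 of 17 osteoblast genes and the lowest for all 15 tested neutrophil genes.

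No single gene passed the test. With edgeR's quasi-likelihood test, 0 of 17657 genes reached an adjusted p under 0.05 (0%), and the smallest adjusted p was 0.663. At an unadjusted p under 0.05, 887 genes (5.02%) were called, where a test with no difference would give 882.85. They were split evenly, with 438 genes higher in SYT (2.48%) and 449 lower (2.54%). The 3 SYT libraries lay wholly above the 3 Blank libraries for 775 genes (4.39%) and wholly below them for 969 (5.49%). The median log2 fold change over all tested genes was 0.03, and 54.1% of genes were above 0. Fold changes below are edgeR estimates on the log2 scale, SYT minus Blank, and none of them passed an adjusted p of 0.05 in this test.

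The count of calls depended on the tool and on single libraries. DESeq2 called 35 genes at an adjusted p under 0.05, of which 17 were higher and 18 lower in SYT. It was run on the same counts as edgeR, so a call by DESeq2 named below is no separate support for a gene. Limma on log2 FPKM called 0 genes, with 1554 at an unadjusted p under 0.05 at a pseudocount of 1 and 1486 at 0.1. Without Blank2, edgeR called 4 genes, Rps10l1 and AABR07044420 as higher and Septin7 and AABR07017208 as lower (named after their values were seen), and in each of the other leave-one-out fits it called 0. The number at an unadjusted p under 0.05 moved from 887 to 1484 without Blank2 and to 1434 without SYT3, and dropped to 467 without Blank1 and to 490 without Blank3. Without TMM factors the median of all genes shifted to -0.21, and the even split turned into 137 genes higher and 1395 lower. In counts simulated for this comparison, edgeR recovered 17.9% of genes made 2-fold different, 64.2% at 4-fold and 89.4% at 8-fold. The simulated counts held no shift shared by many genes of a library, so these rates need not hold for the real libraries.

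Members of 20 gene lists by cell type or pathway are described here. The 2 lists whose members stood farthest from the background were those of platelets, with 13 of 15 members lower at an unadjusted p under 0.05, and of the mitochondrial genome, with 13 of 13 higher. The lists were chosen with earlier results of these data known, so these counts are a description.

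**Figure D1:**
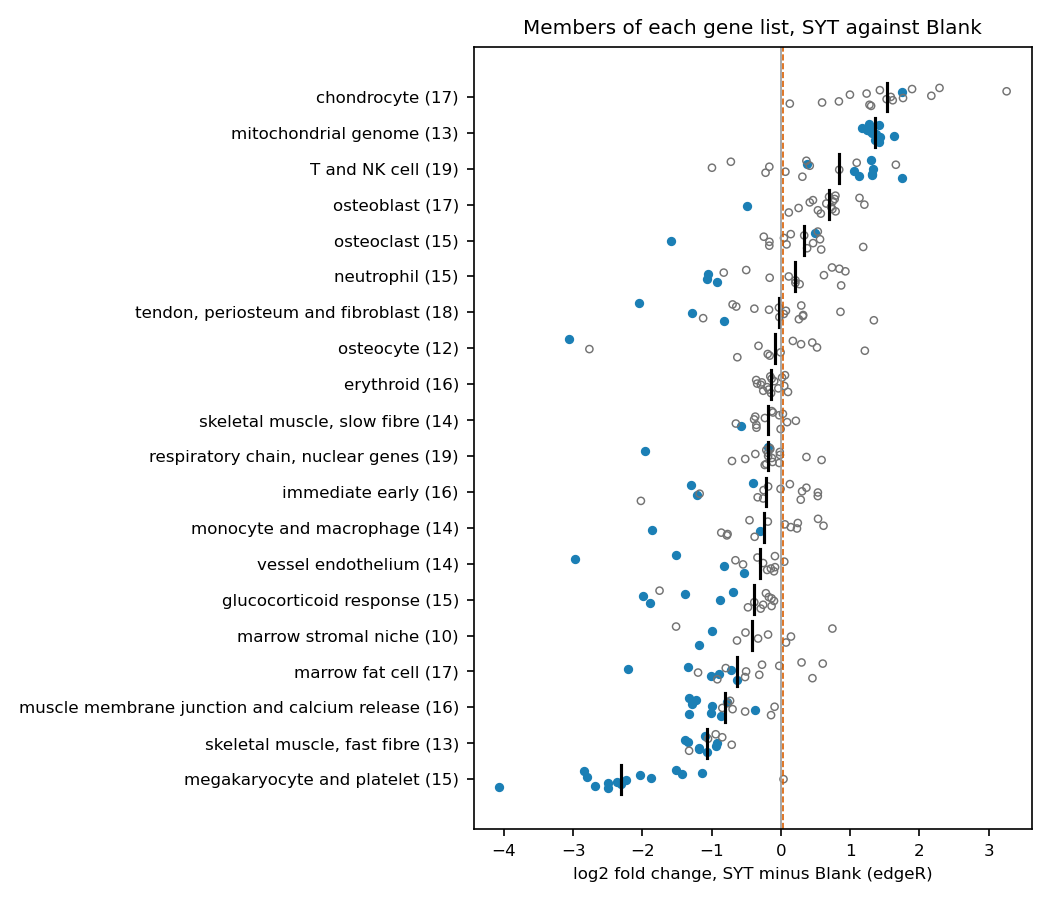
Log2 fold change (SYT minus Blank, edgeR) of each tested member of 20 gene lists, with the number of members in brackets. Filled points are genes whose 3 SYT libraries do not overlap the 3 Blank libraries, open points overlap, black bars are list medians and the dashed line is the median of all tested genes (0.03). Platelet genes lie at the low end (median -2.31), mitochondrial and cartilage genes at the high end (1.36 and 1.53), the latter with open points.

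Platelet and megakaryocyte genes were lower in SYT bone. Megakaryocytes are the giant marrow cells that shed platelets. Of 15 tested members of the list, 14 were lower in SYT with libraries that did not overlap Blank, where 5.49% of all genes were, and 13 had an unadjusted p under 0.05, where 2.54% of all genes did. The list's median log2 fold change was -2.31 and its members ranged from -4.07 to 0.04.

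Gp1bb, a subunit of the platelet receptor for von Willebrand factor, had 2.26, 11.8 and 14.4 CPM in Blank and 0.806, 0.311 and 0.576 CPM in SYT. The groups did not overlap, and Blank1 was the lowest Blank library. The difference was -4.07 ± 0.99 (SE, n = 3 and 3; 95% interval -6.21 to -1.93), with an adjusted p of 0.925 in edgeR; DESeq2 called this gene. In the deposited coordinates Gp1bb overlaps Septin5 on the same strand, and reads shared between them cannot be assigned with certainty; Septin5 had a difference of -0.31 ± 0.32.

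Ppbp, which encodes a chemokine stored in platelet granules, had 380, 186 and 246 CPM in Blank and 28.7, 73.5 and 14.4 CPM in SYT. All 3 SYT libraries lay below the lowest Blank library, Blank2, and the difference was -2.80 ± 0.88 (95% interval -4.70 to -0.90; edgeR adjusted p 0.925). Gp9, the platelet glycoprotein that completes the same receptor complex, had 51.9, 28.9 and 44.0 CPM in Blank and 3.74, 15.1 and 3.26 CPM in SYT. SYT2 was the nearest to Blank in both genes.

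Tubb1, the beta-tubulin of the platelet's marginal band, had 102, 33.4 and 74.7 CPM in Blank and 7.92, 18 and 3.53 CPM in SYT, a difference of -2.84 ± 0.92 (95% interval -4.82 to -0.86; edgeR adjusted p 0.925). The 14 genes that were lower also included Itga2b, Gp5, Gp6, Gp1ba, Pf4, Selp, Treml1, Thbs1 and Vwf. Vwf, which endothelial cells also make, had 165, 83.3 and 134 CPM in Blank and 22.3, 59.8 and 50.7 CPM in SYT. Itgb3, the partner of Itga2b in the platelet fibrinogen receptor and also an osteoclast integrin, had 354, 127 and 272 CPM in Blank and 33.9, 105 and 112 CPM in SYT (-1.58 ± 0.71).

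Nfe2, a transcription factor needed for platelet release and also active in red cell precursors, was the 1 member that was not lower. It had 176, 132 and 136 CPM in Blank and 205, 198 and 52.5 CPM in SYT, and the groups overlapped (0.04 ± 0.45). It was named after its values were seen, as were the 8 members listed above without values.

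Within SYT, 12 of the 15 members were lowest in SYT3 and 12 were highest in SYT2, and within Blank 13 were lowest in Blank2. In Model the libraries did not fall together, and Model1 was the highest Model library for 14 of 15 members. The members' median log2 CPM deviation from the mean of 15 libraries was 1.38 in Model1, against 0.35 to 1.44 in Blank. In Model2 and Model3 it was -0.98 and -0.94. The list's median was -0.72 for Model minus Blank, which shares the Blank libraries, and -1.62 for SYT minus Model, where no member passed (edgeR, smallest adjusted p 1). Red cell genes, made in the same marrow, had a median of -0.15 in SYT minus Blank. Without any 1 library the platelet median stayed between -2.84 and -1.90, and 9 to 13 members had an unadjusted p under 0.05.

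**Figure D2:**
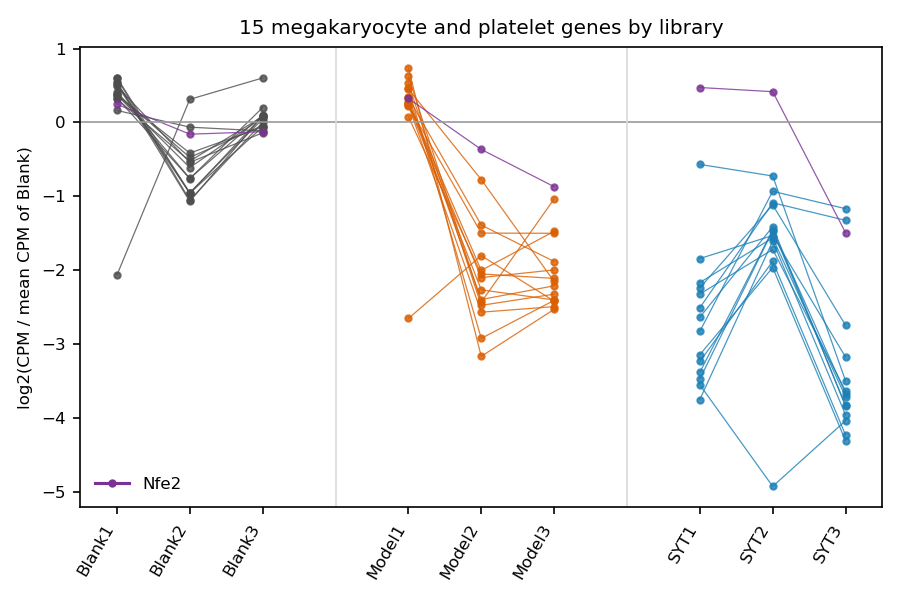
Level of each of 15 megakaryocyte and platelet genes in the Blank, Model and SYT libraries, as log2 of CPM over the gene's mean CPM in Blank; lines join the libraries of a group for 1 gene and do not mean an order. All genes but Nfe2 lie below Blank in the 3 SYT libraries, while Model1 is the highest Model library for 14 of 15 genes. The gene low in Blank1 and Model1 is Gp1bb.

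Because these genes were lower together, the upstream sequence of those in RefSeq's promoter table (build GRCr8) was searched for the site of GATA1, a transcription factor of megakaryocytes and red cells. The words AGATAA or AGATAG, and also TGATAA or TGATAG, were sought on both strands of the 250 bases before the gene start. Of the 15 list genes 10 were in the table and 5 held a match (50.0%), namely Gp1ba, Gp1bb, Gp5, Gp6 and Itga2b, against 7340 of 27457 genes (26.7%) in the whole table. The 4 subunit genes Gp1ba, Gp1bb, Gp5 and Gp9 of the von Willebrand factor receptor and the fibrinogen receptor gene Itga2b are shown, 5′ to 3′ on the gene's strand, with matches in capitals. They lie at chr11:95882311-95882560 (Gp1bb, plus strand), chr10:55851309-55851558 (Gp1ba, plus), chr11:83948257-83948506 (Gp5, plus), chr4:121792592-121792841 (Gp9, plus) and chr10:87925834-87926083 (Itga2b, minus).
Gp1bb: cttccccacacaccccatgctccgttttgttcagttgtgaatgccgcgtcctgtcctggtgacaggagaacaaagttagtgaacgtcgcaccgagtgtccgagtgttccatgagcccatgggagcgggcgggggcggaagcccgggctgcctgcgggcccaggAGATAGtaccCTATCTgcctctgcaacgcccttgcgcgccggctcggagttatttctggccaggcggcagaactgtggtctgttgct
Gp1ba: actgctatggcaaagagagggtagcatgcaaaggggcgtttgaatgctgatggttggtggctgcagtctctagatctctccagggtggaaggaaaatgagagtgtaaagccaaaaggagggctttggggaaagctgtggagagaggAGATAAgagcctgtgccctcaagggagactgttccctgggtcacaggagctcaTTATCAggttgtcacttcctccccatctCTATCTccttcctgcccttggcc
Gp5: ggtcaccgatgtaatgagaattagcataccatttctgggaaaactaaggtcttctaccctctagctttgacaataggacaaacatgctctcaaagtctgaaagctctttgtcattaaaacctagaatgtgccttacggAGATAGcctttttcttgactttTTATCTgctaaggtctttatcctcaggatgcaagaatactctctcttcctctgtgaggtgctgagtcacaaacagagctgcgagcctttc
Itga2b: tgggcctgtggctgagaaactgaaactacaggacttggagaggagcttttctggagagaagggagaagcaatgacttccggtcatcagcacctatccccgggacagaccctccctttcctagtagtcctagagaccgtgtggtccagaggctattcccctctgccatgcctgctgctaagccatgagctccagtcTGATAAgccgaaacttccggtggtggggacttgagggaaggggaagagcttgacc
Gp9: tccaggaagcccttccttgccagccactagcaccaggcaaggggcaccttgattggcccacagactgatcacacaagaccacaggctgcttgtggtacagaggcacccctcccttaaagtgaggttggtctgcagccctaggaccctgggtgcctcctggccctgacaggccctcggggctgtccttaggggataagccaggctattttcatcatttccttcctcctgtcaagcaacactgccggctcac
Gp1bb and Gp5 held 2 matches each, Gp1ba 3, Itga2b 1 and Gp9 none, and all 5 genes were lower in every SYT library than in every Blank library. A match is a description of the letters in this window, not evidence of binding.

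Transcripts of the mitochondrial genome were higher in SYT. The mitochondrial chromosome encodes 13 proteins of the respiratory chain, the enzymes that turn fuel into ATP. All 13 were higher in SYT with libraries that did not overlap Blank, where 4.39% of all genes were, and all 13 had an unadjusted p under 0.05, where 2.48% of all genes did. Their median log2 fold change was 1.36, with a range of 1.16 to 1.64.

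All genes placed on the mitochondrial chromosome, these 13 included, together took 6.07%, 10.7% and 7.44% of counts in Blank. In SYT they took 25.5%, 12.9% and 15.9%. Every SYT library was above every Blank library, with means of 8.07% ± 2.37 (SD, n = 3) and 18.1% ± 6.56 (SD, n = 3) and a 2-sided exact permutation p of 0.1, the smallest that 3 against 3 allows. The share in Model was 9.17%, 11.8% and 12.9%, between the other groups and overlapping both.

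Mt-co3, a subunit of cytochrome c oxidase, had 6927, 16214 and 8068 CPM in Blank and 55588, 16687 and 24888 CPM in SYT (1.64 ± 0.51; 95% interval 0.53 to 2.75; edgeR adjusted p 0.925). SYT1 was the highest and SYT2 barely exceeded Blank2. Mt-nd5, a subunit of complex I, had 1606, 2944 and 2178 CPM in Blank and 6987, 5081 and 5800 CPM in SYT, a wider separation (1.41 ± 0.41). Mt-nd1 differed by 1.31 ± 0.41 and Mt-atp8 by 1.36 ± 0.41; Mt-atp8 overlaps Mt-atp6, so their reads cannot be fully separated.

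SYT1 was the highest SYT library and Blank1 the lowest Blank library for all 13 genes. The 13 genes thus moved together by library, and 13 of 13 does not stand for 13 independent results. Without SYT1, 7 of 13 kept an unadjusted p under 0.05, and the median was 0.97. Of the nuclear genes of the respiratory chain 17 of 19 were at lower estimates in SYT, with a median of -0.18. An unadjusted p under 0.05 was reached by 1 of them, where 2.54% of all genes were lower at that p. It was Ndufs1, the largest complex I subunit (-0.37 ± 0.17). That count was 8 without scaling factors, 9 with limma at either pseudocount, and 0 without Blank1, Blank3, SYT1 or SYT2. Lower calls rose over all genes too, from 449 of 17657 to 1395 without scaling factors. With limma they were 1471 (pseudocount 1) and 1386 (0.1) of 13944, so the larger counts are not particular to this list. Ppargc1a, a coactivator that drives mitochondrial gene expression, had 1.21, 1.59 and 1.52 CPM in Blank and 0.257, 0.466 and 0.384 CPM in SYT (-1.96 ± 1.01). Its groups did not overlap, and 5.49% of all genes were separated in that direction. The labels give no RNA quality value for any library, so its part in the mitochondrial share was not tested.

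**Figure D3:**
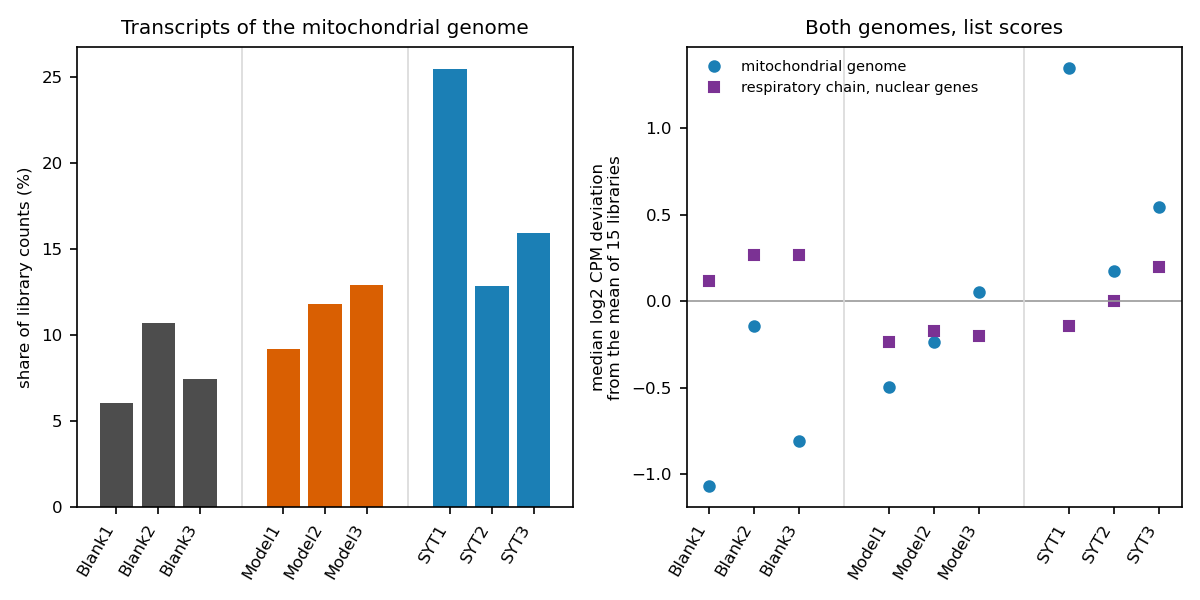
Left, share of each library's counts (percent) from all genes placed on the mitochondrial chromosome, the 13 protein genes included. Right, list scores by library, the median over members of log2 CPM minus the gene's mean over 15 libraries. The SYT shares (12.9% to 25.5%) lie above the Blank shares (6.07% to 10.7%), and circles and squares give the scores of the mitochondrial and the nuclear genes.

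Glucocorticoid-induced genes were at lower estimates in SYT throughout the list. Glucocorticoids are adrenal stress hormones, and their receptor switches on a shared set of genes in many tissues. All 15 members were below 0, where 45.9% of all genes were, 5 had libraries that did not overlap, where 5.49% of all genes were separated downwards, and 4 had an unadjusted p under 0.05, where 2.54% of all genes did. The median was -0.38, and without SYT3 it was -0.67.

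Errfi1, an inhibitor of the EGF receptor, had 165, 124 and 158 CPM in Blank and 28.4, 35.0 and 57.3 CPM in SYT. The lowest Blank library was above the highest SYT library, and the difference was -1.89 ± 0.50 (95% interval -2.96 to -0.81; edgeR adjusted p 0.925). Per1, a clock gene with a glucocorticoid response element, had 74.5, 54.6 and 66.9 CPM in Blank and 14.8, 28.2 and 32.1 CPM in SYT (-1.38 ± 0.37).

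Tsc22d3, which encodes the glucocorticoid-induced leucine zipper protein, had 188, 177 and 165 CPM in Blank and 105, 93.8 and 129 CPM in SYT (-0.69 ± 0.24). Pdk4, the kinase that shuts off pyruvate oxidation in fasting muscle, had 71.2, 35.7 and 78.4 CPM in Blank and 7.13, 26.7 and 12.8 CPM in SYT (-1.99 ± 0.82). All 4 genes were separated between the groups. For 9 of the 15 members every Model library was also below every Blank library, and the share of all genes with that order is not given here. Errfi1 had 50.5, 18.5 and 57.6 CPM and Tsc22d3 90.5, 99.9 and 89.5 CPM in Model, and SYT minus Model was -0.07 for Errfi1 and 0.23 for Tsc22d3 (edgeR adjusted p 1 for both). Pdk4 is abundant in muscle, whose genes were lower too, as described below; the part of muscle in this list was not tested.

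Of 16 immediate early genes, which respond within minutes to stimulation or handling, 10 were lower and 6 higher, with a median of -0.22, and 3 of the lower and 1 of the higher had an unadjusted p under 0.05, where 2.54% of all genes were lower and 2.48% higher at that p. The median was -0.025 without Blank3, -0.12 without Blank1 and -0.14 without SYT2. Fos, a component of the AP-1 transcription factor, had 22.3, 22.6 and 32.5 CPM in Blank and 10, 11.9 and 11.5 CPM in SYT (-1.21 ± 0.32). Nr4a1, an orphan nuclear receptor, had 45.4, 26.1 and 48.7 CPM in Blank and 13.8, 15.1 and 19.9 CPM in SYT (-1.30 ± 0.37). Both were among the 3 of 16 members separated downwards, where 5.49% of all genes were. Ier2, another member, was higher at 83.3, 52.3 and 48.2 CPM in SYT against 37.5, 52.6 and 36.9 CPM in Blank. Its groups overlapped (0.53 ± 0.23).

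Skeletal muscle genes in SYT lay between Model and Blank. The 4 genes that passed in Model against Blank (0.0227% of 17657, with 8.19% at an unadjusted p under 0.05; edgeR adjusted p 0.0276 to 0.0458) were Mlf1, Sh3bgr, Adssl1 and Pkia, all of them on the muscle list of membrane junctions and calcium release. They are described here because they passed in that comparison, which shares the Blank libraries, so a level in SYT below Blank and above Model follows in part from the choice and supports nothing. All 4 were lower in SYT than in Blank with groups that did not overlap. The list had 16 tested members, all lower and with a median of -0.81 (-0.50 without SYT1). Of these, 9 were separated, the 4 chosen genes among them, where 5.49% of all genes were. Only the 4 chosen genes had an unadjusted p under 0.05, where 2.54% of all genes did. Both counts thus hold the chosen genes and are no support for the list.

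Pkia, an inhibitor of protein kinase A, had 22.3, 19.9 and 25.6 CPM in Blank, 4.73, 4.35 and 7.74 CPM in Model and 8.96, 10.2 and 8.78 CPM in SYT. All SYT libraries lay above all Model libraries and below all Blank ones. SYT minus Blank was -1.28 ± 0.25 (95% interval -1.83 to -0.73; edgeR adjusted p 0.803), a 2.43-fold lower level, and DESeq2 called it; SYT minus Model was 0.73 (edgeR adjusted p 1).

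Mlf1, a protein of muscle and blood progenitors, had 24.4, 21.9 and 30.7 CPM in Blank, 5.14, 3.93 and 4.22 CPM in Model and 6.60, 13.2 and 18.6 CPM in SYT (SYT minus Blank -1.0 ± 0.31). Adssl1, the muscle enzyme of the purine nucleotide cycle, had 56.1, 49.8 and 67.4 CPM in Blank, 16.3, 11.8 and 12.2 CPM in Model and 21.4, 33.6 and 40.4 CPM in SYT (-0.86 ± 0.27). Sh3bgr had 25.7, 32.2 and 33.8 CPM in Blank, 6.18, 3.20 and 7.4 CPM in Model and 9.93, 20.4 and 23.2 CPM in SYT (-0.78 ± 0.34). In these 3 genes SYT1 was the SYT library nearest to Model. None of the 4 passed in SYT minus Model (edgeR adjusted p 1), where 3.16% of all genes had an unadjusted p under 0.05, so the position between the groups is one of estimates and library values.

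Genes of fast-twitch fibres repeated this order with a wider spread. All 13 tested members were lower in SYT than in Blank, where 45.9% of all genes were. Libraries did not overlap for 8 of them, where 5.49% of all genes were separated downwards. An unadjusted p under 0.05 was reached by 0 of the 13. Their median was -1.06, against -3.05 for Model minus Blank. Mylpf, the fast regulatory light chain of myosin, had 430, 701 and 572 CPM in Blank, 79.9, 62.6 and 63.5 CPM in Model and 50.5, 266 and 358 CPM in SYT (SYT minus Blank -1.34 ± 0.65; 95% interval -2.74 to 0.07). SYT1 was the lowest SYT library for all 13 genes, at the Model level, while SYT2 and SYT3 lay above every Model library for all 13. Without SYT1 the median was -0.57.

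Casq1, the calcium store protein of fast fibres, showed the same split, with 8.71, 55.0 and 48.8 CPM in SYT against 76.8, 76.1 and 102 CPM in Blank. Slow-fibre genes were nearer to Blank: 11 of 14 were lower, with a median of -0.18 (-0.098 without Blank1, -0.37 without Blank2, -0.44 without SYT3). For 10 of 14 all SYT libraries were above all Model libraries, and the share of all genes with that order is not given here. Mb, the oxygen store myoglobin, had 465, 469 and 577 CPM in Blank, 56.7, 16.0 and 123 CPM in Model and 177, 304 and 481 CPM in SYT (-0.65 ± 0.85; 95% interval -2.48 to 1.18). The share of counts from Acta1, skeletal actin, was 0.168% ± 0.0558 in Blank and 0.0695% ± 0.0414 in SYT (SD, n = 3; exact permutation p 0.1).

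**Figure D4:**
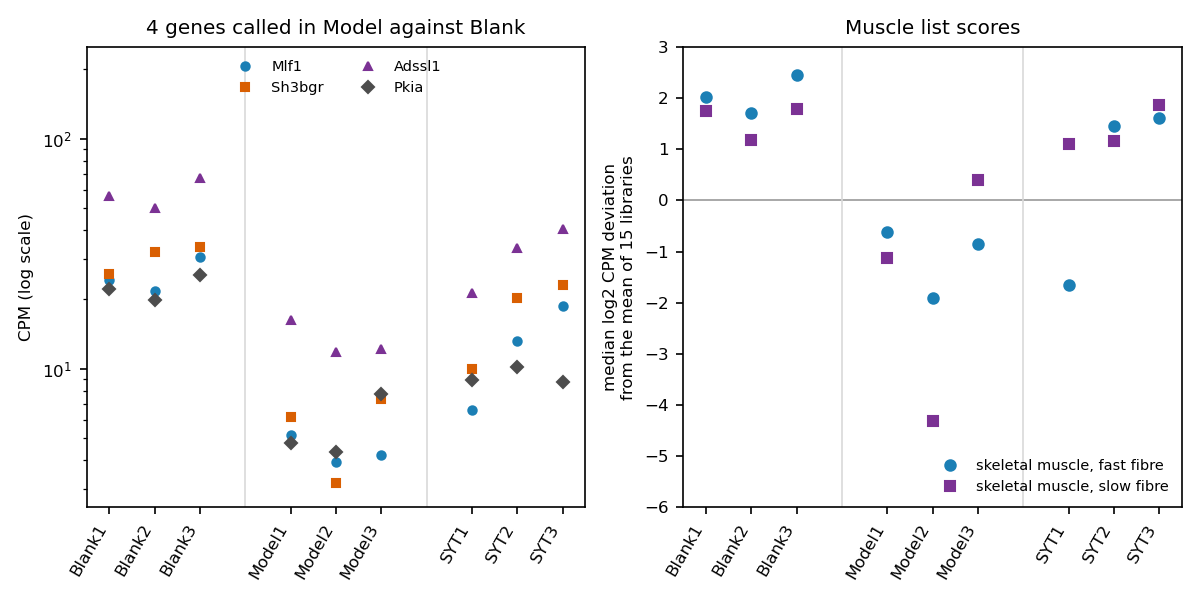
Left, CPM (log scale) by library of the 4 genes that passed in Model against Blank. Right, list scores of fast- and slow-fibre genes, the median over members of log2 CPM minus the gene's mean over 15 libraries. SYT libraries lie between Model and Blank for Pkia, and SYT1 (fast-fibre score -1.65) lies apart from SYT2 and SYT3 (1.46 and 1.61).

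Among bone genes, Sost stood out as lower in SYT. Sclerostin, its product, blocks Wnt signalling in osteoblasts. Sost, at 89897087 to 89900131 on the minus strand of chromosome 10 in the deposited coordinates (genome build not given in the sources used here) had 21.1, 5.70 and 17.3 CPM in Blank and 0.825, 0.870 and 3.59 CPM in SYT. The groups did not overlap, with Blank2 the lowest Blank library and SYT3 the highest SYT library, and the difference was -3.06 ± 0.89 (95% interval -4.99 to -1.13; 8.32-fold lower; edgeR adjusted p 0.925). Model had 2.43, 1.99 and 5.70 CPM, and SYT minus Model was -0.94 (edgeR adjusted p 1).

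The other osteocyte genes were mixed. Dmp1, a matrix phosphoprotein of osteocytes, had 455, 808 and 657 CPM in Blank and 373, 230 and 1311 CPM in SYT, a difference of 0.00 ± 0.68 with a 95% interval from -1.47 to 1.46. Of the 12 osteocyte genes 7 were lower and 5 higher, with a median of -0.08. SYT3 was the highest SYT library for 10 of the 12, and without it the median was -0.94. Without SYT3 2 members were lower at an unadjusted p under 0.05, where 518 of 18044 genes were. With all libraries 1 member was, where 2.54% of all genes were. Fgf23, the phosphate hormone, was near the detection limit, at no more than 0.411 CPM in Blank and 0.0886 CPM in SYT (-2.76 ± 2.06; 95% interval -7.21 to 1.68).

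Osteoblast genes were mostly above 0, by the weight of 1 library. Of 17 members 16 were higher, with a median of 0.69, but 0 had an unadjusted p under 0.05 and without SYT3 the median was -0.075. Col1a1 had 9218, 31240 and 20943 CPM in Blank and 12912, 18194 and 75016 CPM in SYT (0.79 ± 0.95; 95% interval -1.27 to 2.85). SYT1 and SYT2 lay within the Blank range and SYT3 above it.

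Sp7, the osteoblast transcription factor osterix, had 7.43, 16.4 and 13.2 CPM in Blank and 11.3, 17.8 and 52.1 CPM in SYT (1.13 ± 0.75; 95% interval -0.49 to 2.76). Runx2, the master regulator of the lineage, differed by 0.42 ± 0.44 (95% interval -0.54 to 1.37), and Bglap, which encodes osteocalcin, by 0.11 ± 0.66 (95% interval -1.32 to 1.55). These intervals span both directions and do not show that the groups were alike.

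Osteoclast genes were mixed, 11 of 15 being higher with a median of 0.34, which was 0.067 without Blank1 and 0.056 without SYT3. Ctsk, the collagen-cutting protease of osteoclasts, had 916, 3206 and 1763 CPM in Blank and 1434, 2551 and 4133 CPM in SYT (0.46 ± 0.68; 95% interval -1.0 to 1.93). Acp5, tartrate-resistant acid phosphatase, differed by 0.58 ± 0.79 (95% interval -1.12 to 2.28). Tcirg1, a subunit of the proton pump that acidifies the resorption pit, was the 1 member separated upwards, with 55.2, 86.8 and 74.9 CPM in Blank and 92.0, 104 and 109 CPM in SYT (0.49 ± 0.25). Itgb3, the integrin given above with the platelet genes, was the 1 member separated downwards and the 1 with an unadjusted p under 0.05 (-1.58 ± 0.71). Of all genes 4.39% were separated upwards, 5.49% were separated downwards and 2.54% were lower at that p, so single members of 15 do not set the list apart.

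The osteoclast-regulating pair overlapped between the groups. Tnfsf11, which encodes RANKL, the signal that makes osteoclasts, had 3.59, 6.2 and 2.44 CPM in Blank and 1.28, 1.3 and 3.87 CPM in SYT (-0.92 ± 0.60; 95% interval -2.21 to 0.38). Tnfrsf11b, which encodes osteoprotegerin, the decoy receptor of RANKL, had 8.25, 12.4 and 14.1 CPM in Blank and 4.67, 44.2 and 30.3 CPM in SYT (1.19 ± 0.88; 95% interval -0.71 to 3.08), with SYT1 below Blank and the others above. Esr1, oestrogen receptor alpha, differed by 0.61 ± 0.72 (95% interval -0.95 to 2.16).

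Cartilage genes had the highest median of the lists described, 1.53, with 17 of 17 members above 0. Yet 0 had an unadjusted p under 0.05, against 4 with only the 6 SYT and Blank libraries in the fit and 3 without YJT3 and YJZYT3, and 1 of 17 was separated between the groups, where 4.39% of all genes were. That gene was Ihh, the growth plate signal Indian hedgehog, with 1.37, 4.73 and 3.38 CPM in Blank and 4.95, 13.4 and 13.5 CPM in SYT (1.75 ± 1.16).

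Comp, a cartilage matrix protein, had 31.2, 131 and 85.0 CPM in Blank and 57.8, 617 and 438 CPM in SYT (2.17 ± 1.57). Sox9, the transcription factor that sets the cartilage lineage, had 1.41, 1.60 and 1.68 CPM in Blank and 1.54, 7.19 and 8.72 CPM in SYT (1.89 ± 1.08). SYT1 was the lowest SYT library for all 17 genes and Blank1 the lowest Blank library for all 17. The amount of growth plate in each piece of bone is not given in the labels, and its part in this spread was not tested.

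**Figure D5:**
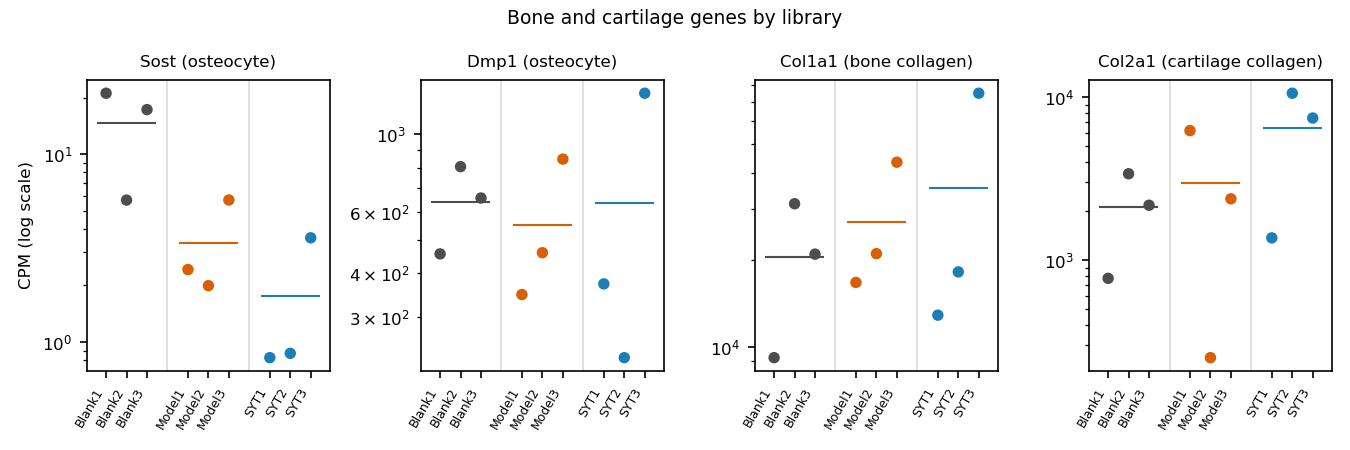
CPM (log scale, differing between panels) by library of 2 osteocyte genes, Sost and Dmp1, and of the collagens Col1a1 and Col2a1; horizontal lines are group means of CPM. For Sost all SYT libraries (0.825 to 3.59) lie below all Blank libraries (5.70 to 21.1), while for the other 3 genes the groups overlap.

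Vessel, stromal and macrophage genes included several that were lower in SYT. Of 14 endothelial genes 13 were lower and 4 had an unadjusted p under 0.05, where 2.54% of all genes did, with a median of -0.30. Without SYT1 that count was 2 and the median -0.13, and without SYT3 they were 7 and -0.68. Stab2, a scavenger receptor of marrow sinusoids, had 13.9, 2.80 and 17.3 CPM in Blank and 0.458, 2.41 and 1.48 CPM in SYT (-2.97 ± 0.88). Esam, an adhesion protein of endothelial junctions and platelets, had 34.2, 36.3 and 35.4 CPM in Blank and 12.7, 18.1 and 28.9 CPM in SYT (-0.83 ± 0.29). Apold1 differed by -0.54 ± 0.18. All of these were separated downwards, where 5.49% of all genes were, though Blank2 was close to SYT for Stab2. Vwf, given above with the platelet genes, is also on this list and was separated, so the vessel and platelet lists are not independent.

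Of the 10 genes of the stromal niche, the marrow cells that hold blood stem cells, 7 were lower and 3 had an unadjusted p under 0.05, where 2.54% of all genes did. That count was 1 without Blank1, without Blank3 or without SYT2 and 5 without SYT3, and the median of -0.42 ranged from -0.16 (without Blank3) to -0.90 (without SYT3). Vcam1, an adhesion molecule, had 177, 65.2 and 191 CPM in Blank and 22.7, 44.2 and 84.7 CPM in SYT, overlapping through Blank2 and SYT3 (-1.51 ± 0.47). Angpt1, a niche growth factor for vessels, had 35.3, 17.6 and 32.3 CPM in Blank and 12.6, 10.9 and 14.2 CPM in SYT (-1.18 ± 0.45). Lepr, the leptin receptor that marks these cells, differed by -0.99 ± 0.44, with SYT1 lowest.

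Cd163, the haemoglobin scavenger of resident macrophages, had 55.5, 21.0 and 48.9 CPM in Blank and 6.36, 11.5 and 16.7 CPM in SYT (-1.86 ± 0.50; 95% interval -2.94 to -0.78; edgeR adjusted p 0.925). The groups did not overlap. The macrophage and monocyte list as a whole was mixed, with 8 of 14 lower and a median of -0.25, which was -0.084 without Blank2, -0.094 without SYT2 and -0.40 without SYT3. Hmox1, the heme-degrading enzyme abundant in macrophages that clear red cells, had 110, 81.0 and 103 CPM in Blank and 44.8, 52.0 and 67.9 CPM in SYT (-0.84 ± 0.20).

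Fcna, a ficolin of innate immunity, had 134, 38.0 and 118 CPM in Blank and 27.2, 26.1 and 20.1 CPM in SYT (-1.98 ± 0.44). Dnase1l3, a nuclease secreted by macrophages and dendritic cells, had 41.2, 10.7 and 38.9 CPM in Blank and 5.06, 7.86 and 9.73 CPM in SYT (-2.00 ± 0.48). Fcna, Dnase1l3 and Hmox1 are not on the macrophage list and were named by the smallest-p rule given below. That rule took only separated genes, so their separation follows from the choice. In Fcna and Dnase1l3 Blank2 was far nearer to SYT than Blank1 and Blank3 were. DESeq2 called Fcna and Dnase1l3.

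Marrow fat genes were lower in 14 of 17 cases, with a median of -0.63. Of these, 6 were separated downwards, where 5.49% of all genes were, and 1 had an unadjusted p under 0.05, where 2.54% of all genes did; the latter count was 0 without Blank3 or without SYT2. That gene was Fabp4, the fat cell's fatty acid carrier, with 193, 178 and 255 CPM in Blank, 82.3, 23.2 and 57.0 CPM in Model and 122, 114 and 99.6 CPM in SYT (-0.90 ± 0.38; 95% interval -1.72 to -0.08). All SYT libraries were above all Model ones and below all Blank ones. Adipoq, which encodes adiponectin, overlapped between SYT and Blank (-0.92 ± 0.79; 95% interval -2.63 to 0.80), and Pparg, the fat cell regulator, did too (-0.27 ± 0.47; 95% interval -1.29 to 0.75).

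In the lymphoid lineage, 15 of 19 T and NK cell genes were higher, where 54.1% of all genes were. An unadjusted p under 0.05 was reached by 7, all higher, where 2.48% of all genes were higher at that p. Separated upwards were 8, where 4.39% of all genes were. The median was 0.84 (0.41 without SYT1), and the levels were low. Bcl11b, a transcription factor of T cell commitment, had 0.726, 0.680 and 0.291 CPM in Blank and 1.59, 1.58 and 2.55 CPM in SYT (1.75 ± 0.53). Cd247, the zeta chain of the T cell receptor complex, had 1.32, 2.04 and 1.3 CPM in Blank and 4.33, 2.58 and 3.31 CPM in SYT (1.13 ± 0.35).

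Cd5 differed by 1.06 ± 0.39 and Zap70, the kinase recruited by the zeta chain, by 1.3 ± 0.49. In both genes every SYT library was above every Blank library. Model lay on the same side, with a list median of 0.51 for Model minus Blank. SYT1 was the highest SYT library for 14 of 19 members. The 7 members at an unadjusted p under 0.05 became 3 without SYT1, 4 without Blank1 and 4 without Blank3, and among members with a mean of at least 5 FPKM the median was -0.090 and the count 0. The list's summed level was 167 to 187 CPM in Blank and 157 to 196 CPM in SYT.

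Myeloid and red cell genes showed library spread above all. Of 15 tested neutrophil genes, 3 had an unadjusted p under 0.05, all lower, where 2.54% of all genes were lower at that p. All 3 encode proteins of the primary granules that form in early precursors. Elane, neutrophil elastase, had 223, 193 and 170 CPM in Blank and 137, 93.6 and 48.3 CPM in SYT (-1.07 ± 0.43); it overlaps Arhgap45 on the same strand. Mpo, myeloperoxidase, had 974, 665 and 824 CPM in Blank and 628, 383 and 176 CPM in SYT (-1.05 ± 0.45). Ctsg, cathepsin G, differed by -0.92 ± 0.42.

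All 3 were separated, where 5.49% of all genes were separated downwards, yet the list's median was 0.21, since 9 of the 15 genes were higher. SYT1 was the highest SYT library and SYT3 the lowest for all 15 neutrophil genes, and the summed level of the list was 38865, 9664 and 2647 CPM in SYT1, SYT2 and SYT3. Without SYT1 the median was -0.81 and without Blank2 -0.089. Red cell genes had a median of -0.15, with 0 of 16 at an unadjusted p under 0.05 and SYT3 lowest for all 16. Haemoglobin took 11.7% ± 2.54 of counts in Blank and 9.52% ± 5.00 in SYT (SD, n = 3; exact permutation p 0.4).

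Tendon and fibroblast genes were mixed, 10 of 18 being lower with a median of -0.03. Tnmd, the tendon membrane protein tenomodulin, had 17.4, 10.1 and 15.2 CPM in Blank and 2.62, 6.04 and 1.65 CPM in SYT (-2.05 ± 1.42). Aspn, a small proteoglycan, had 59.8, 56.6 and 57.3 CPM in Blank and 39.1, 18 and 41.3 CPM in SYT (-0.82 ± 0.47). Both were among the 3 of 18 members separated downwards, where 5.49% of all genes were, and 0 of the 18 had an unadjusted p under 0.05.

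Beyond the lists, the 12 genes with the smallest unadjusted p in each direction, among those separated and with a mean of at least 1 FPKM in SYT or Blank, were named by rule. Their adjusted p was 0.925 for the 12 higher and 0.803 to 0.925 for the 12 lower genes in edgeR. DESeq2 called 15 of the 24, and 35 of the 17303 genes it tested. The 24 were chosen by their p in the same counts, so that overlap follows in part from the choice and supports nothing. All 24 lay on the same side of Blank in Model by their estimates, a comparison that shares the Blank libraries, and the smallest adjusted p of SYT minus Model among them was 1 in edgeR.

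Gja3, which encodes the gap junction protein connexin 46, had the smallest p of the 24. It had 3.48, 2.05 and 3.22 CPM in Blank, 2.46, 1.45 and 1.41 CPM in Model and 0.532, 1.01 and 0.590 CPM in SYT (-2.03 ± 0.40; 95% interval -2.90 to -1.17; edgeR adjusted p 0.803). SYT lay below Model as well as below Blank in every library, with SYT minus Model at -1.31.

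Other lower genes were Sectm1a, a membrane protein of immune cells (-2.41 ± 0.57), Slc25a25, a mitochondrial ATP-Mg carrier (-0.69 ± 0.17), and Prkaa2, a catalytic subunit of the energy sensor AMPK that is prominent in muscle. Prkaa2 had 5.85, 2.53 and 6.36 CPM in Blank and 1.04, 1.13 and 1.17 CPM in SYT (-2.14 ± 0.54). Ccl2, the chemokine that draws monocytes, had 2.69, 2.60 and 5.79 CPM in Blank and 1.48, 0.683 and 0.945 CPM in SYT (-1.83 ± 0.47). Parm1 (-1.05 ± 0.26) and Slc9a9, an endosomal sodium-proton exchanger (-0.89 ± 0.23), completed the 12 with Pkia, Fcna, Dnase1l3, Hmox1 and Gp1bb.

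Parm1 differed from most of them in Model, which had 16.5, 19.1 and 8.17 CPM against 16.5, 15.5 and 14.0 CPM in Blank and 7.00, 8.09 and 7.11 CPM in SYT. SYT minus Model was -0.98, and it did not pass (edgeR adjusted p 1). Septin7, a cytoskeletal GTPase, gave a like pattern, with 80.3, 27.4 and 75.3 CPM in Blank, 66.7, 87.1 and 72.3 CPM in Model and 24.4, 18.8 and 28.2 CPM in SYT. Blank2 lay among the SYT libraries (-1.36 ± 0.33 against Blank and -1.66 against Model), and without Blank2 Septin7 was 1 of the 4 genes that edgeR called.

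The higher genes differed by less. Kctd11, an adaptor of a ubiquitin ligase that restrains hedgehog signalling, had 4.50, 5.29 and 3.55 CPM in Blank and 9.16, 7.11 and 10.4 CPM in SYT (1.0 ± 0.21; 95% interval 0.54 to 1.46; edgeR adjusted p 0.925). Rara, the retinoic acid receptor alpha, had 28.1, 33.0 and 33.3 CPM in Blank and 48.8, 45.3 and 47.1 CPM in SYT (0.58 ± 0.14). Its SYT libraries lay in a narrow band above Blank. Pias4, a SUMO ligase, was higher as well (0.71 ± 0.16), and had 13.7, 13.0 and 12.2 CPM in Blank and 23.6, 22.1 and 17.7 CPM in SYT.

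Zfp467, a zinc finger protein that influences the choice between fat cell and osteoblast, had 4.64, 4.48 and 6.57 CPM in Blank and 10.3, 9.72 and 12.3 CPM in SYT (1.04 ± 0.25; 95% interval 0.50 to 1.58). Of the calcium channel genes in the set, Orai3 was higher by 0.62 ± 0.17 and Trpv2 by 0.64 ± 0.18. Separation of the libraries was a condition for entering the set. Scube1, a secreted protein found in platelets and endothelium, was higher too (0.87 ± 0.23), with 7.30, 7.45 and 6.25 CPM in Blank and 13.1, 14.4 and 10.8 CPM in SYT. Abhd6, an endocannabinoid lipase (0.63 ± 0.18), Frmd8 (0.41 ± 0.11) and Casc1 (0.92 ± 0.26) were also among the 12. Model was higher than Blank for these genes as well, by 0.89 for Kctd11, 0.41 for Rara, 0.68 for Zfp467 and 0.73 for Trpv2.

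The last pair of higher genes was close to absent from Blank. Sirpd, of the signal-regulatory protein family, had 0 counts in all 3 Blank libraries, 164, 1068 and 169 counts in SYT and 789, 1130 and 0 counts in Model. Against a floor of 3 counts over the Blank group it was at least 548-fold higher in SYT. Because 1 ovariectomized Model library also had 0 counts, absence was not particular to intact rats, and near-identical family members can share its reads. Ctrb1, the pancreatic digestive enzyme chymotrypsinogen, had 0, 0 and 4 counts in Blank, 4, 492 and 394 counts in SYT and 387, 107 and 219 counts in Model. SYT1 and Blank3 had the same count.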

How the data were processed

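RNA of rat bone was sequenced as poly(A)-selected libraries, per the labels' protocols. Gene counts and FPKM values are the authors' deposited values, in 1 table of all 15 libraries. HISAT2 2.0.4, StringTie 1.3.4d, cutadapt 1.9, UMI-tools, edgeR and DESeq2 were used upstream, per the submitters' processing notes, with genome build, annotation and counting step not given in the sources used here. Counts were tested as deposited with edgeR 4.0.16 (quasi-likelihood, TMM factors, filterByExpr by group, 17657 genes kept and 4811 left out, Benjamini-Hochberg adjustment) in R 4.3.3, with all 15 libraries in 1 fit that shares its estimate of the spread. CPM values are scaled by TMM factors, and intervals are 95%. FPKM gave levels and a limma 3.58.1 alternative on log2(FPKM + 1) and log2(FPKM + 0.1); DESeq2 1.42.0 was another. Total counts ranged from 64472700 to 74255667. Shares of counts were compared by exact 2-sided permutation tests. Genes named were, in each direction, the 12 smallest p among separated genes with a symbol and a mean of at least 1 FPKM, up to 4 members with the smallest p per list, and a fixed set of key genes. Members and the 38 lists were chosen with earlier results of these data known. The scripts were tested on simulated counts. Of the 38 lists, 18 are not described in the report, with medians from -0.37 to 0.42, and no member of any list passed an adjusted p of 0.05 in edgeR.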

Additional observations from a re-analysis of the deposited data

How the results depend on the processing

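In simulated counts the test recovered 17.9% of 2-fold differences, so most differences of that size were missed there with 3 libraries a group. Those counts were drawn independently for each gene and library, so the rate need not hold for the real libraries. The count of genes passing an adjusted p of 0.05 in edgeR was 0 in each direction with RLE size factors, without scaling factors, without the count filter, at a mean of at least 5 FPKM, with only the 6 libraries, without YJT3 and YJZYT3, and with mitochondrial and haemoglobin genes left out (an alternative chosen after seeing the data). DESeq2 called 17 higher and 18 lower, and an unadjusted p under 0.05 with a 2-fold difference gave 181 and 267. Leaving out 1 library gave 0 to 2 genes in each direction. The replicate numbers did not pair the samples (r of same-numbered SYT and Blank deviations 0.106, -0.221 and 0.113); with a replicate block the count was 0 in each direction and 705 genes had an unadjusted p under 0.05. The difference in haemoglobin share was -2.15 percentage points, with 1 library left out from -4.51 (SYT2) to 0.467 (SYT3); that in Col1a1 share was 1.13, from -0.766 (without SYT3) to 2.26 (without SYT1). Medians near 0 changed sign: neutrophil genes (0.21) gave -0.50 and -0.47 with limma, -0.12 without scaling factors and -0.81 to 0.68 with 1 library left out. With 1 library left out, red cell genes ranged from -1.01 to 0.24, osteoblast genes from -0.075 to 1.05, osteocyte genes from -0.94 to 0.23 and tendon genes from -0.48 to 0.21. T and NK cell genes gave -0.090 at a mean of at least 5 FPKM. The cause was not tested in any of these.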
